A study of Mus musculus with 20 samples.

Results

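The integrated stress response was described from 10 genes: the eIF2α kinase genes Eif2ak1 (HRI), Eif2ak3 (PERK) and Eif2ak4 (GCN2), the transcription factor genes Atf4, Atf5 and Ddit3, and the response genes Trib3, Asns, Nupr1 and Ppp1r15a. They were chosen by symbol, each matched 1 of the 37748 gene entries of the deposited mouse table, and all 10 passed the filter on low values (a signal of at least 1 in at least 5 libraries), which 10890 entries passed. Trib3 reached 1 in 6 PHZ and 0 PBS libraries and Nupr1 in 10 PHZ and 3 PBS libraries, so both passed only through the PHZ groups defined below, while the other 8 genes reached it in all 20. RNA was sequenced from CFU-E, the committed erythroid progenitors of the bone marrow, of Mx1-Cre mice and Mx1-Cre Srsf2P95H/+ mice (called P95H below), which also carry a heterozygous P95H change of the splicing factor Srsf2. Each genotype received PBS or phenylhydrazine (PHZ, 30 mg/kg), a haemolytic agent that leaves the animal anaemic, subcutaneously on days 0 and 1, and cells were collected on day 4. This gave the 4 groups Mx1-Cre PBS, Mx1-Cre PHZ, P95H PBS and P95H PHZ, with 5 libraries each and 20 in all. Both genotypes carry Mx1-Cre, in which an interferon-inducible promoter drives the recombinase in blood cells and other tissues. Whether and when Cre was induced, and the age and sex of the mice, were not given in the sources used here.

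As background, the integrated stress response lowers protein synthesis through phosphorylation of the translation initiation factor eIF2, by kinases that sense different stresses: HRI haem shortage, PERK unfolded protein in the endoplasmic reticulum, and GCN2 amino acid shortage. Phosphorylated eIF2 inhibits its exchange factor eIF2B, while the mRNA of Atf4 is translated better, and ATF4 then raises genes of amino acid supply and of feedback. In erythroid precursors HRI is known for matching globin synthesis to the supply of haem. Phosphorylation and translation were not measured by these data, which hold RNA levels only.

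ATF4 with a C/EBP partner binds C/EBP-ATF response elements (CARE), here searched as TGATGNAA, and CREB family factors bind the cyclic AMP response element (CRE), TGACGTCA. Both strands of the 300 bases from 250 before to 50 after each RefSeq gene start (GRCm38.p6) were searched, and all 10 genes had at least 1 window. CARE letters were found for 3 of the 10 genes, Nupr1, Trib3 and Asns, against 3.97% of all 32851 windows. The 10 genes had 12 windows, so a count per gene and a share of windows are not the same measure. CRE letters were found for Ppp1r15a alone, against 1.79% of all windows. The endoplasmic reticulum stress element (ERSE, CCAAT and CCACG at its fixed spacing) was found for none of the 10 and in 0.119% of all windows. The matches are shown because Nupr1 and Trib3 are the genes whose RNA rose after PHZ below, while Asns, which also holds CARE letters, was not called. Each is printed with its flanks on the strand of its gene, 5′ to 3′, with the matching letters in capitals; in Nupr1 and Trib3 the CARE lies on the opposite strand, so its reverse complement is in capitals.
Nupr1: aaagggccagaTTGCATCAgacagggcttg
Trib3: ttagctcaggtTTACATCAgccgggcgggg
Asns: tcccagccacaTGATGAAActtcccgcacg
Ppp1r15a: cgcctctccggTGACGTCAgcacagcgccg
The printed stretch of Nupr1 lies at chr7:126625562-126625591, that of Trib3 at chr2:152344028-152344057, that of Asns at chr6:7693214-7693243 and that of Ppp1r15a at chr7:45526262-45526291, all on the minus strand. Relative to the RefSeq start the first matching base is at -110 in Nupr1, -23 in Asns, -12 in Ppp1r15a and +14 in Trib3. In the GENCODE annotation the matches of Nupr1 and Asns fall in an annotated exon of some transcript, and those of Trib3 and Ppp1r15a do not. A match describes letters in this window and does not show binding.

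Cells were sorted as live, lineage-negative and high in c-Kit, with CD105 and without Sca-1, CD41, CD16/32 and CD150, and the libraries carried the genes of this stage. Gata1 and Klf1, the master factors of erythroid genes, ran from 172 to 247 and from 289 to 404, the erythropoietin receptor gene Epor from 126 to 165, Kit from 40.9 to 155, and Eng, which encodes the sorted antigen CD105, from 84.0 to 125. Tfrc, the highest of the CFU-E markers, differed by treatment. It ran in Mx1-Cre from 320 to 413 after PBS and 574 to 761 after PHZ, and in P95H from 275 to 484 and 675 to 718. Genes of the antigens sorted against (Ly6a, Itga2b, Fcgr3 and Slamf1) summed to 1.41 to 6.64. All of these values, and every level below, are the deposited signal, which has the form of TPM and is thus scaled per transcript length. Signal from another lineage was present. The 18 granulocyte and monocyte markers, led by S100a9, summed in Mx1-Cre to 462 to 970 after PBS and 154 to 1094 after PHZ, and in P95H to 574 to 2514 and 162 to 607, with the highest sums in P95H PBS replicates 5 and 4 (2514 and 1860). The sums of the lymphoid, megakaryocyte, mast cell and macrophage lists stayed at or below 17.7 in every library, and no marker was at 0 in all 20. In such bulk RNA, fewer cells of a type and less RNA per cell cannot be told apart.

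Levels of the 10 genes spanned a wide range. By their medians over the 20 libraries, Asns, the asparagine synthetase gene, stood highest at 281, followed by Atf4 at 269 and Eif2ak1 at 110.4. Ddit3 (35.4) and Ppp1r15a (29.4) were intermediate, Eif2ak4 (14.3), Eif2ak3 (8.06) and Atf5 (3.88) low, and Nupr1 (2.16) and Trib3 (0.696) lowest. Neighbours in this order did not separate in 4 places. Asns was above Atf4 in 13 of 20 libraries, Ddit3 above Ppp1r15a in 18, Atf5 above Nupr1 in 15 and Nupr1 above Trib3 in 18. The other neighbours had ranges over the 20 libraries that did not touch. Of the ATF family pair, Atf4 exceeded Atf5, which encodes a second stress-regulated bZIP factor, by a median of 69.8 times (53.5 to 102).

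HRI was the most abundant kinase RNA of the 3 in every library. Eif2ak1 was 7.75 times Eif2ak4 (6.66 to 9.65 over the 20 libraries) and 13.8 times Eif2ak3 (12 to 18.7), and Eif2ak4 was 1.77 times Eif2ak3 (1.53 to 2.10), each as a median of the ratio of levels. The remaining eIF2α kinase gene, Eif2ak2 (PKR, which senses double-stranded RNA), was added after the values were seen and lay between them, with group means from 32.1 to 32.8. Eif2ak1 was 3.47 times Eif2ak2 by the median ratio (2.99 to 4.17). These differences between genes far exceeded those between groups.

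**Figure D1:**
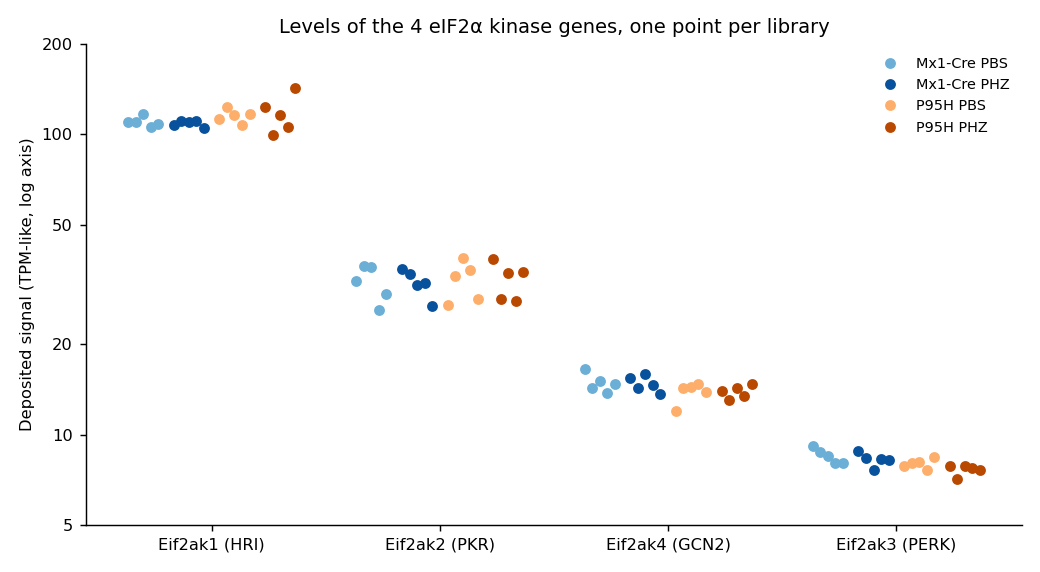
Deposited signal (TPM-like, log axis) of the 4 eIF2α kinase genes, 1 point per library, coloured by group (5 libraries each). In every library Eif2ak1 lies above Eif2ak2, Eif2ak4 and Eif2ak3, and the groups compared overlap within each gene, with P95H PHZ replicate 5 standing above the other libraries in Eif2ak1.

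None of the kinase genes was called in any comparison of groups (limma on log2(signal + 1), Benjamini-Hochberg adjusted p under 0.05 over the 10890 genes). In Mx1-Cre, Eif2ak1 averaged 110.2 ± 4.02 after PBS and 108.8 ± 2.48 after PHZ, and in P95H 115.1 ± 5.92 and 117.3 ± 16.7 (SD, n = 5 for every group mean given here and below). The wide spread of the last group came from its replicate 5, at 142.4. The other 4 libraries there were at 123.2, 99.6, 115.6 and 105.6, while the other groups ran from 105.3 to 123.35. Eif2ak1 differed after PHZ by -0.02 in Mx1-Cre (95% interval -0.159 to 0.125) and 0.02 in P95H (-0.125 to 0.158), all differences being in log2(signal + 1). P95H minus Mx1-Cre was 0.06 under PBS (-0.0798 to 0.204) and 0.10 under PHZ (-0.0462 to 0.237). Without that P95H PHZ library the PHZ difference in P95H was -0.06 and the genotype difference under PHZ 0.02, neither called (adjusted p = 0.486 and 0.871, limma).

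Eif2ak3 lay between 7.09 and 9.15 in all 20 libraries and Eif2ak4 between 12.0 and 16.5. Their PHZ differences were -0.04 (SE 0.0584) and -0.00 (SE 0.0641) in Mx1-Cre, and -0.06 and 0.01 in P95H. In P95H against Mx1-Cre, Eif2ak3 differed by -0.08 (adjusted p = 0.576, limma) under PBS and -0.10 (adjusted p = 0.318) under PHZ, and Eif2ak4 by -0.10 and -0.08 (adjusted p = 0.523 and 0.48). The lower bounds of these 4 intervals ran from -0.229 to -0.199. Between genotypes the values thus lay below 0 for PERK and GCN2 and above 0 for HRI, with none beyond the spread between libraries.

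Among the factors, Atf4 in Mx1-Cre was 277, 262, 242, 199.96 and 269.6 after PBS and 289.6, 286, 323, 261 and 299 after PHZ, in the order of the replicate numbers. In P95H it was 333, 227, 249, 268 and 278 after PBS and 277, 286, 233, 255 and 246 after PHZ. In Mx1-Cre 4 of 5 PHZ libraries lay above every PBS library, and in P95H the treatments overlapped throughout. The Mx1-Cre means were 250.1 ± 30.9 and 292 ± 22.2, a difference of 0.23 (SE 0.0939, adjusted p = 0.068, limma), and the P95H means were 271 ± 39.5 and 259 ± 22.1, a difference of -0.06 (SE 0.0939, adjusted p = 0.692). Atf4 therefore missed the threshold in both genotypes. In Mx1-Cre it passed with the authors' factor per library divided out (0.28, adjusted p = 0.0236) and when either PBS replicate 1 or PHZ replicate 4 of Mx1-Cre was left out (adjusted p = 0.0471 and 0.0495). The difference was 0.15 without Mx1-Cre PBS replicate 4, the lowest library (adjusted p = 0.228), and 0.15 under quantile normalization.

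The interaction, the PHZ effect in P95H minus that in Mx1-Cre, was -0.28 for Atf4 (SE 0.133, unadjusted p = 0.044, limma), the smallest unadjusted p of the 10 genes in that comparison. It did not pass after adjustment (adjusted p = 0.798), and no gene of the 10890 did (577 had an unadjusted p under 0.05 in limma). Between genotypes, Atf4 differed by 0.11 under PBS (95% interval -0.0822 to 0.308) and -0.17 under PHZ (-0.366 to 0.0237). Atf5 lay between 2.72 and 5.39 in all libraries. Its PHZ difference was 0.21 in Mx1-Cre (SE 0.109, adjusted p = 0.156) and 0.04 in P95H (adjusted p = 0.825), with overlapping groups in both.

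Ddit3, which encodes the stress factor CHOP, fell after PHZ in P95H. There it was 50.2, 34.4, 37.5, 37.9 and 40.7 after PBS and 31.7, 26.9, 23.7, 26.6 and 34.4 after PHZ, so 4 of 5 PHZ libraries lay below every PBS library and the remaining PHZ library met the lowest PBS one. The mean went from 40.1 ± 6.05 to 28.7 ± 4.31, 0.714 times as much (log2 difference -0.47, SE 0.0974, adjusted p = 0.000936, limma). In Mx1-Cre the values were 38.6, 41.9, 40.3, 42.3 and 35.1 after PBS and 35.7, 31.6, 29.6, 32.7 and 37.2 after PHZ. These groups overlapped, and the difference of -0.24 (SE 0.0974, adjusted p = 0.0594) missed the threshold. It passed under quantile normalization (-0.27, adjusted p = 0.0348), with the 2 groups fitted alone (adjusted p = 0.0173) and when replicate 5 of either Mx1-Cre group was left out (adjusted p = 0.0379 for PBS and 0.039 for PHZ). The 2 PHZ effects were not shown to differ (interaction -0.23, SE 0.138, adjusted p = 0.798). With the mean granulocyte and monocyte marker level as covariate, the P95H difference was -0.39 and no longer passed (adjusted p = 0.0836). Without P95H PBS replicates 4 and 5 it still passed.

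Trib3, which encodes a pseudokinase that restrains ATF4 as feedback, rose after PHZ in both genotypes from a very low level. In Mx1-Cre it was 0.395, 0.443, 0.339, 0.162 and 0.659 after PBS and 0.872, 0.733, 1.52, 0.861 and 1.37 after PHZ. In P95H it was 0.493, 0.482, 0.384, 0.629 and 0.358 after PBS and 1.32, 1.52, 1.33, 0.905 and 1.82 after PHZ. In both genotypes every PHZ library lay above every PBS library. The ratio of means was 2.68 in Mx1-Cre (log2 difference 0.56, SE 0.124, adjusted p = 0.00177, limma) and 2.94 in P95H (0.69, SE 0.124, adjusted p = 0.000255). The added 1 understates the change of a gene this low, and the depth behind the values is unknown. Trib3 was among the genes tested only through its PHZ libraries, so these p-values are not independent of the filter.

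Nupr1, which encodes a small stress-induced chromatin protein, showed the largest PHZ difference of the 10 genes. In Mx1-Cre it was 0.526, 1.097, 0.534, 0.302 and 0.558 after PBS and 3.94, 3.53, 5.13, 2.97 and 3.40 after PHZ. In P95H it was 0.986, 0.275, 1.36, 1.56 and 0.624 after PBS and 5.06, 5.70, 4.16, 3.96 and 2.76 after PHZ. The highest PBS library of either genotype thus lay below the lowest PHZ library. Means went from 0.603 ± 0.295 to 3.80 ± 0.823 in Mx1-Cre, 6.29 times as much (log2 difference 1.58, SE 0.18, adjusted p = 1.56e-06, limma). In P95H they went from 0.961 ± 0.525 to 4.33 ± 1.12, 4.50 times as much (1.46, SE 0.18, adjusted p = 4.07e-06). Nupr1 and Trib3 passed in both genotypes without each library in turn, and in every other alternative that tested them, no filter and the granulocyte covariate included. A filter at a signal of 5 removed both, and in the main fit both passed the filter only through the PHZ libraries. The median granulocyte sum was 641 after PBS and 199.97 after PHZ in Mx1-Cre, and 1455 and 397 in P95H. Mx1-Cre PHZ replicate 5, at 1094, stood above every Mx1-Cre PBS library in this sum. Which cells the RNA of Nupr1 and Trib3 came from was not tested.

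**Figure D2:**
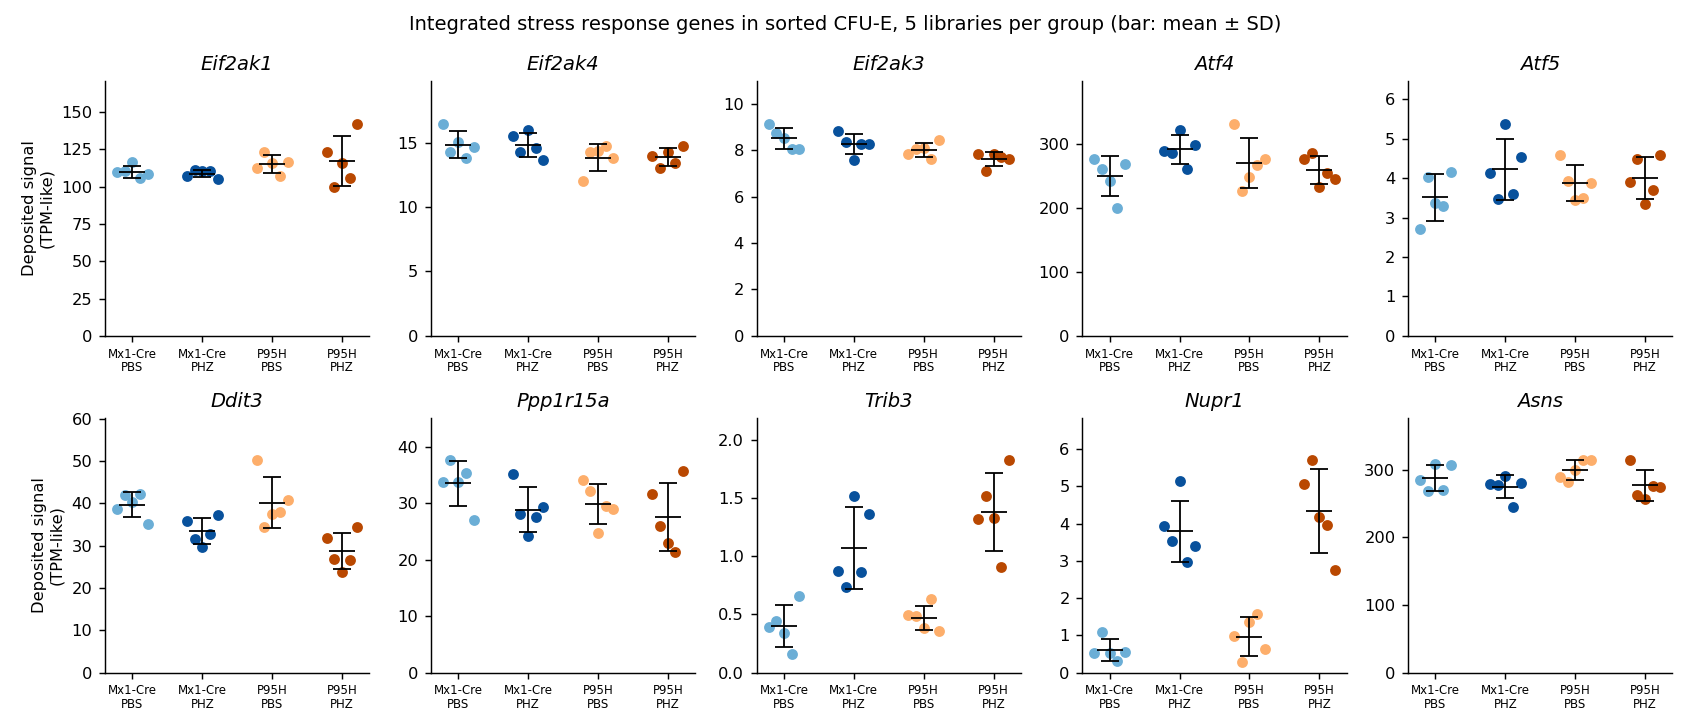
Deposited signal (TPM-like) of each of the 10 genes in the 4 groups, 1 point per library, with the mean ± SD of 5 libraries as bars and each axis starting at 0. Nupr1 and Trib3 separate PHZ from PBS in both genotypes, Ddit3 lies lower in P95H PHZ, and in the other panels the groups compared overlap.

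Asns and Ppp1r15a, the other response genes, were called in no comparison. Asns averaged 288 ± 19.3 and 274 ± 17.1 in Mx1-Cre PBS and PHZ, and 299.6 ± 14.4 and 276 ± 22.3 in P95H. Its PHZ differences were -0.07 (SE 0.0604, adjusted p = 0.422) and -0.12 (SE 0.0604, adjusted p = 0.146, limma), both below 0. It was called lower in Mx1-Cre under quantile normalization (-0.16, adjusted p = 0.0294) and in P95H without P95H PHZ replicate 1 (-0.16, adjusted p = 0.0384), that library being the highest of its group at 314. Ppp1r15a encodes GADD34, the regulatory subunit through which the phosphatase PP1 reverses eIF2 phosphorylation. It averaged 33.5 ± 3.96 and 28.9 ± 4.00 in Mx1-Cre PBS and PHZ, and 29.9 ± 3.54 and 27.5 ± 6.04 in P95H. The PHZ differences were -0.21 (95% interval -0.47 to 0.0476) and -0.13 (-0.394 to 0.124).

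Counted together, 2 of the 10 genes rose and 0 fell after PHZ in Mx1-Cre, where 17.0% of the 10890 genes rose, 14.9% fell and 31.9% were called in either direction. After PHZ in P95H 2 rose and 1 fell, where 12.6% of all genes rose, 17.7% fell and 30.2% were called. The shares of 2 and 3 in 10 are near these backgrounds, and Nupr1 and Trib3 owed their place among the genes tested to the PHZ libraries. Groups without overlap were seen for the same 2 genes in each genotype, beside 22.4% and 17.6% of all genes. The median difference of the 10 genes was -0.01 in Mx1-Cre and -0.02 in P95H, beside -0.00 and -0.02 over all genes. Dividing the authors' factor out changed the split of all genes to 2237 higher and 1216 lower in Mx1-Cre (1856 and 1618 as deposited), and 2583 and 1108 in P95H (1371 and 1923 as deposited), where the median gene moved up by 0.101. Under that scaling 3 members rose in Mx1-Cre (Nupr1, Trib3 and Atf4), and in P95H 2 rose and Ddit3 fell.

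In P95H against Mx1-Cre, 0 of the 10 genes passed in limma under either treatment. Under PBS 0.358% of all genes were higher in P95H and 1.12% lower, 1.48% in all, and 3.67% had groups without overlap. Under PHZ 1.10% were higher and 4.37% lower, 5.47% in all, and 6.95% had groups without overlap. No member had groups without overlap in either. Without adjustment, limma gave 0 of the 10 a p under 0.05 under PBS and 1 under PHZ. That gene was Ddit3, at -0.22 (SE 0.0974, unadjusted p = 0.0359, adjusted p = 0.194). The largest differences under PBS were Nupr1 at 0.26 (95% interval -0.111 to 0.639) and Ppp1r15a at -0.16 (-0.418 to 0.1), and under PHZ Ddit3 and Trib3 at 0.20 (-0.0519 to 0.461). The interaction called 0 of the 10 genes, with 0% of all genes called and 1 of the 10 at an unadjusted p under 0.05 (Atf4).

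**Figure D3:**
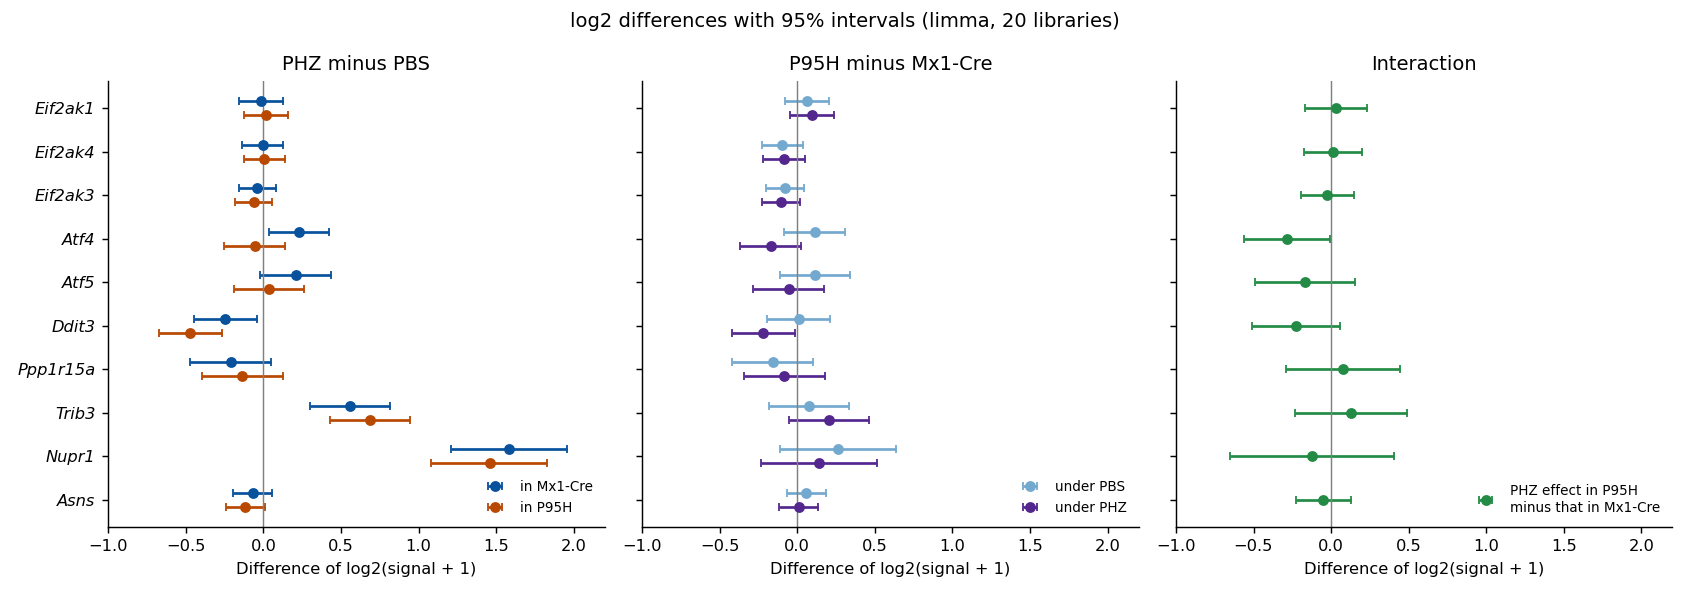
Difference of log2(signal + 1) for each of the 10 genes, with limma's 95% intervals as bars: PHZ minus PBS in each genotype, and P95H minus Mx1-Cre under each treatment, and the interaction. Nupr1 and Trib3 stand well above 0 in both PHZ comparisons and Ddit3 below 0 in both, and the genotype intervals of every gene but Ddit3 under PHZ include 0; the interaction interval of Atf4 ends just below 0.

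The wider pathway was described from lists of other genes, chosen with earlier results of these data known. Genes of amino acid synthesis, one-carbon metabolism and amino acid transport, known ATF4 targets, mostly rose after PHZ. Of the 17 tested (of 21), 15 rose and 0 fell in Mx1-Cre (median 0.39) and 11 rose and 0 fell in P95H (median 0.49). Over all genes 17.0% rose and 14.9% fell in Mx1-Cre, and 12.6% rose and 17.7% fell in P95H. Mthfd2, a mitochondrial folate enzyme, went from 48.9 ± 9.83 to 130.1 ± 9.83 in Mx1-Cre (1.42, SE 0.127, adjusted p = 1.05e-07, limma) and from 53.6 ± 5.14 to 133 ± 20.9 in P95H (1.29, SE 0.127, adjusted p = 3.36e-07). Psat1, of serine synthesis, went from 77.8 ± 8.91 to 136 ± 12.8 (0.80, adjusted p = 1.13e-06) and from 81.7 ± 7.18 to 133 ± 16.5 (0.69, adjusted p = 6.99e-06). For both genes every PHZ library lay above every PBS library of its genotype. The count in Mx1-Cre was 9 without Mx1-Cre PBS replicate 4, and that in P95H was 6 with the granulocyte covariate (median 0.35). With the authors' factor divided out, 15 rose in Mx1-Cre and 14 in P95H, where 2237 and 2583 of all genes rose. Asns also serves amino acid synthesis, and its own differences above lay below 0.

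Genes of tRNA synthetases, which load amino acids on tRNAs, and the tRNA exporter gene Xpot mostly rose in Mx1-Cre. Of 15 tested, 13 rose and 0 fell in Mx1-Cre (median 0.33), and 8 rose and 0 fell in P95H (median 0.15). Over all genes 17.0% rose in Mx1-Cre and 12.6% in P95H. With the authors' factor divided out, 14 rose in Mx1-Cre and 12 in P95H (medians 0.38 and 0.25). Under that scaling 2237 and 2583 of all genes rose. Tars, for threonine, went from 91.2 ± 11.4 to 134 ± 6.54 in Mx1-Cre (0.56, SE 0.0738, adjusted p = 1e-05, limma) and from 98.3 ± 6.68 to 126 ± 7.65 in P95H (0.36, adjusted p = 0.000927). Wars, for tryptophan, went from 63.1 ± 9.84 to 90.8 ± 5.94 (0.53, adjusted p = 0.000127) and from 68.3 ± 4.55 to 83.8 ± 6.83 (0.29, adjusted p = 0.0164). The P95H count was 2 with the granulocyte covariate and 4 without P95H PBS replicates 4 and 5, and Wars in P95H was not called in either. With the covariate the P95H median of the list was 0.17. Wars in P95H stayed at 0.29 with it, while its SE went from 0.0884 to 0.128. All 15 interaction values lay below 0 (median -0.13), as did 57.7% of those of all genes (6283 of 10890). So did 13 of 17 in the amino acid list, 11 of 14 other stress targets and 13 of 21 in the eIF2 list. In the haem and globin list it was 2 of 15. No gene of the tRNA synthetase list passed the interaction test (limma adjusted p = 0.798 for Tars and Wars). All 15 stayed below 0 under each of the 3 other scalings, with medians from -0.13 to -0.07. The 15 genes were measured in the same 20 libraries, so their signs are not 15 independent observations. Without Mx1-Cre PBS replicate 4 the median was -0.08, with all 15 again below 0. Of the 15 genes of this list, 8 had a window for the motif search, and CARE letters were found for 5 of these 8. They were found for 5 of 18 genes in the amino acid list and 5 of 18 in the list of other stress targets. In the eIF2 list it was 1 of 16, and in the haem and globin list below 0 of 13. These counts are per gene, over 8, 22, 25, 17 and 16 windows, beside 3.97% of all windows.

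Genes of eIF2 itself, eIF2B and their regulators were called at shares of 33.3% in Mx1-Cre and 28.6% in P95H, near the 31.9% and 30.2% of all genes. Of 21 tested, 6 rose and 1 fell after PHZ in Mx1-Cre (median 0.10) and 4 rose and 2 fell in P95H (median 0.11). Eif2s1, which encodes the eIF2 subunit that the kinases phosphorylate, went from 232 ± 17.6 to 321 ± 10.1 in Mx1-Cre (0.47, SE 0.0548, adjusted p = 1.99e-06, limma) and from 219 ± 15.4 to 294 ± 7.51 in P95H (0.42, adjusted p = 6.35e-06), without overlap. Eif2b1, an eIF2B subunit, went from 113 ± 11.9 to 149.8 ± 7.54 (0.41, adjusted p = 0.00013) and from 126.5 ± 7.86 to 149.8 ± 11.0 (0.24, adjusted p = 0.011). Nck1, an adaptor that also binds eIF2, fell by 0.21 in Mx1-Cre (adjusted p = 0.036) and by 0.24 in P95H (adjusted p = 0.0158). Nck1 lost its Mx1-Cre call without any one of Mx1-Cre PBS replicates 4 and 5 and PHZ replicates 2, 3 and 4 (adjusted p = 0.0709 to 0.124). With the granulocyte covariate the P95H count was 2 higher and 0 lower, and Eif2b1 and Nck1 were not called there. Without P95H PBS replicates 4 and 5 it was 1 higher and 2 lower, again without Eif2b1. With the authors' factor divided out, 9 rose and 0 fell in Mx1-Cre and 11 rose and 0 fell in P95H.

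Other stress genes linked to ATF4 moved in both directions. Of 14 tested (of 22), 2 rose and 3 fell after PHZ in Mx1-Cre (median -0.02) and 2 rose and 4 fell in P95H (median -0.12). The shares called were 35.7% in Mx1-Cre and 42.9% in P95H, beside 31.9% and 30.2% of all genes. Vegfa, an angiogenic factor gene, rose by 0.70 and 0.63 (SE 0.0889, adjusted p = 5.79e-06 and 1.77e-05, limma), and Ero1l, an oxidase gene of the endoplasmic reticulum, by 0.46 and 0.35 (adjusted p = 0.000255 and 0.00262). Ddit4, which encodes the mTORC1 inhibitor REDD1, went from 5.47 ± 1.72 to 2.88 ± 0.606 in Mx1-Cre (-0.72, SE 0.17, adjusted p = 0.00302) and from 6.18 ± 0.796 to 3.33 ± 1.21 in P95H (-0.76, adjusted p = 0.0018). Sesn2, another inhibitor of mTORC1, fell by 0.25 and by 0.42 (adjusted p = 0.0315 and 0.00099). The Mx1-Cre call of Sesn2 was lost without any one of Mx1-Cre PBS replicates 1, 2 and 3 and PHZ replicates 1, 3 and 5 (adjusted p = 0.059 to 0.0942). The 3 decreases in Mx1-Cre became 1 without PBS replicate 1 or 3 or PHZ replicate 1 or 3. With the granulocyte covariate Ddit4 and Ero1l were not called in P95H.

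Genes of haem synthesis and globin, the pathway whose product HRI senses, were called at shares of 26.7% in Mx1-Cre and 20% in P95H, beside 31.9% and 30.2% of all genes. Of 15 tested, 1 rose and 3 fell after PHZ in Mx1-Cre (median -0.13) and 1 rose and 2 fell in P95H (median -0.13). With the 2 Mx1-Cre groups fitted alone, 1 rose and 7 fell. Cpox, a late enzyme of haem synthesis, went from 423 ± 39.8 to 575 ± 31.0 in Mx1-Cre (0.45, SE 0.0787, adjusted p = 0.000218, limma) and from 409 ± 26.5 to 577 ± 75.5 in P95H (0.49, adjusted p = 8.19e-05). Alas1, the housekeeping form of the first enzyme, fell by 0.36 and by 0.41 (SE 0.0698, adjusted p = 0.000541 and 0.000162). Alas2, of the same list, was called in neither genotype (0.01 and 0.44, limma adjusted p = 0.984 and 0.247). Urod was called lower in both (-0.29 and -0.31, adjusted p = 0.0136 and 0.00839). Alas2 and Urod were named after the values were seen. Ppox, the enzyme after Cpox, fell by 0.33 in Mx1-Cre (adjusted p = 0.0143), and in P95H it differed by -0.24 and missed the threshold (adjusted p = 0.0732). Without P95H PHZ replicate 5, whose Eif2ak1 value stood apart above, Ppox passed there too (adjusted p = 0.00329) and the count was 4 lower. Without P95H PHZ replicate 4 it was 3 higher.

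**Figure D4:**
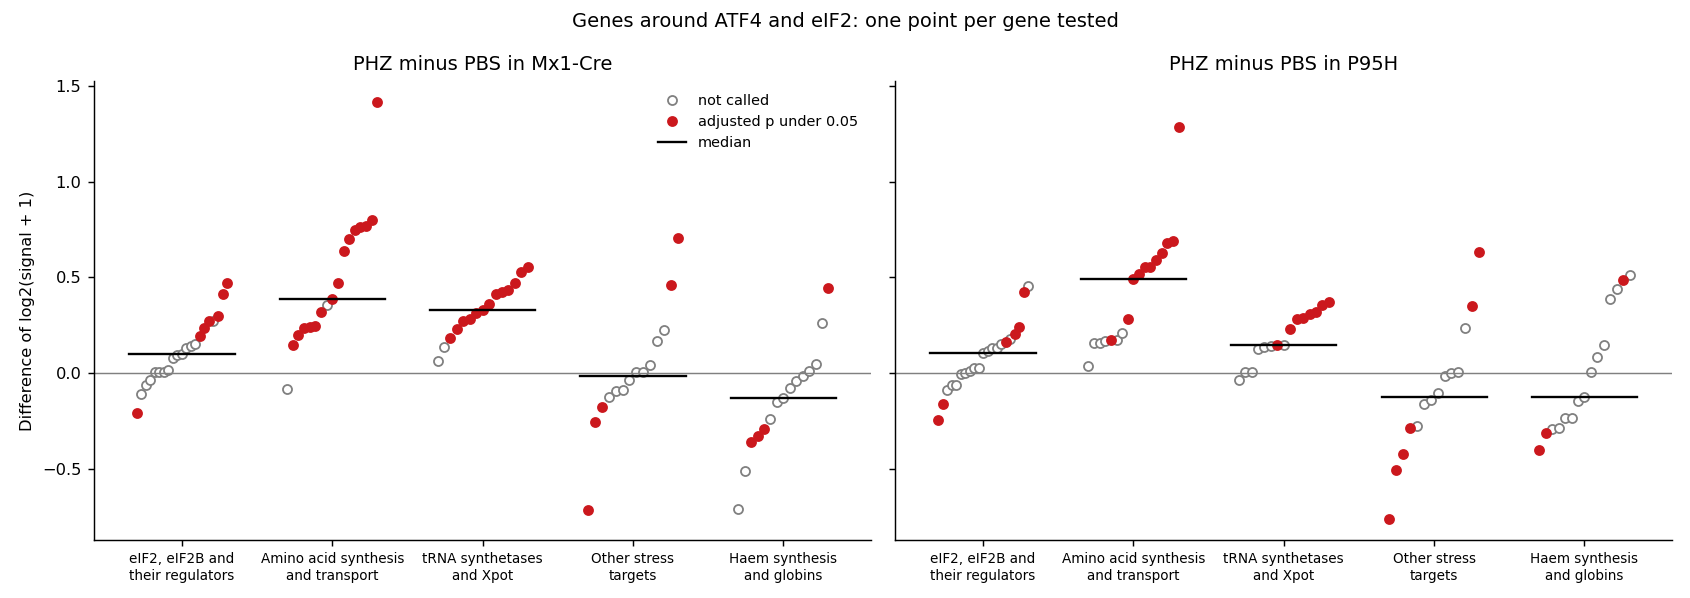
Difference of log2(signal + 1), PHZ minus PBS, for the genes of 5 lists around ATF4 and eIF2 in each genotype, 1 point per gene tested, with called genes (limma adjusted p under 0.05) in red and the median of each list as a line. The amino acid and tRNA synthetase lists have medians above 0 and no gene called lower, while the other stress targets and the haem and globin list have called genes on both sides.

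Between genotypes the 5 lists together had 1 of 82 genes called under PBS (1.22%, beside 1.48% of all genes) and 4 of 82 under PHZ (4.88%, beside 5.47%), pooled shares near the background. By list, 3 of the 14 other stress targets were lower in P95H under PHZ (21.4%, beside 4.37% of all genes). That count was 0 under quantile normalization and with the factor divided out. Of the 17 amino acid genes 1 was higher, and the eIF2, tRNA synthetase and haem lists had 0 called under PHZ. The gene under PBS was Eif2d, a noncanonical initiation factor gene, at 69.7 ± 3.44 in Mx1-Cre and 82.9 ± 2.61 in P95H (0.25, SE 0.0443, adjusted p = 0.00446, limma), without overlap. Of the 4 under PHZ, Pycr1, of proline synthesis, was higher in P95H (1.86 ± 0.32 against 2.58 ± 0.228, difference 0.33, adjusted p = 0.0433). Nfe2l2, which encodes the oxidative stress factor NRF2, was lower in P95H (126 ± 4.52 against 104.7 ± 8.55, difference -0.26, SE 0.0568, adjusted p = 0.00864), with every P95H library below every Mx1-Cre library. Herpud1, of endoplasmic reticulum protein degradation, was lower by 0.32 (adjusted p = 0.0249) and Becn1, of autophagy, by 0.15 (adjusted p = 0.0329). For both, every P95H library again lay below every Mx1-Cre library, while the groups overlapped for Pycr1. Pycr1 lost its call without any one of Mx1-Cre PHZ replicates 1, 4 and 5 and P95H PHZ replicates 1, 2, 4 and 5 (adjusted p = 0.0669 to 0.105). Herpud1 was not called when replicate 2 or 3 of Mx1-Cre PHZ or replicate 5 of P95H PHZ was left out (0.0582 to 0.0645), nor was Becn1 for replicate 1, 3, 4 or 5 of the former or 2, 3 or 4 of the latter (0.0608 to 0.0852). Nfe2l2 kept its call without each library in turn, and lost it under quantile normalization (adjusted p = 0.0543) and with the factor divided out (adjusted p = 0.0764).

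The genes most like Eif2ak1 and Atf4 across the 20 libraries were taken from 8276 genes with a mean of at least 5, by Pearson's r of log2 values, as a description over libraries that share groups and processing. For Eif2ak1 they were March8, a ubiquitin ligase gene (r = 0.893), the histone gene Hist2h2be (r = 0.872) and the antiproliferative gene Btg2 (r = 0.858). Without the 2 libraries farthest from the median of Eif2ak1, P95H PHZ replicate 5 and P95H PBS replicate 2, these were 0.739, 0.773 and 0.723. Btg2 itself ran from 5.14 to 26.7. For Atf4 they were Mphosph10, of ribosomal RNA processing (r = 0.873), Mcrip2 (r = 0.865) and the seryl-tRNA synthetase gene Sars (r = 0.865). Without Mx1-Cre PBS replicate 4 and P95H PBS replicate 1 these were 0.839, 0.817 and 0.822. Sars is in the tRNA synthetase list above.

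In GRCm38 with the GENCODE annotation, Eif2ak1 lies at chr5:143817788-143904251, Eif2ak3 at chr6:70844515-70905245, Eif2ak4 at chr2:118388618-118475234, Atf4 at chr15:80255184-80257541 and Ddit3 at chr10:127290774-127296288, all on the plus strand. On the minus strand lie Atf5 at chr7:44812256-44816658, Trib3 at chr2:152337422-152344032, Asns at chr6:7675169-7693254, Nupr1 at chr7:126623249-126630861 and Ppp1r15a at chr7:45522916-45526268. All 10 are protein-coding. Use of strand in counting was not given in the sources used here, so values of genes that share a stretch with another gene model are uncertain there. Ddit3 shares 2925 bases with a second Ddit3 gene model on the same strand and 68 bases with Mars, Atf5 shares 571 with Nup62 and 272 with Il4i1, and Ppp1r15a shares 717 with Tulp2. Eif2ak1 shares 6945 bases with Ankrd61 and 1548 with Aimp2, and Eif2ak3 shares 2449 and 136 with Gm43292 and Gm23346. Of these partners, the second Ddit3 model, Nup62 and Gm43292 matched no entry of the table used here. Nupr1, Trib3, Atf4, Asns and Eif2ak4 overlapped no other gene model.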

How the data were processed

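The authors deposited 1 table of normalized expression signal. Divided by 1 factor per library (0.940 to 1.10), 100% of values below 1000 steps were whole multiples of 0.01 (tolerance 0.01 of a step), the form of TPM rounded to 2 decimals. How this factor arose was not given in the sources used here. Tools listed in the submitters' processing notes were TopHat, TopHat2 2.0.8b, RSEM 1.2.4 and Bowtie, and builds GRCm38, mm10, GRCh37 and hg19; their roles are unstated. Per the labels, each library had at least 100000000 reads of 150 bp, paired; the depth behind each value is unknown. Sums ran from 924763 to 1085050, and 10364 to 10755 entries reached 1.

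Values were analysed as log2(signal + 1), which understates changes of low genes. limma 3.58.1 (R 4.3.3) fitted all 20 libraries with trended, robust moderation, on entries at 1 or more in at least 5 libraries. Its 5 contrasts were PHZ against PBS per genotype, P95H against Mx1-Cre per treatment, and their interaction, with two-sided tests, adjusted over all 10890 entries, at 0.05. The fit was tested on simulated data. The labels give each library its own number, and p-values measure the spread between these libraries, the highest correlation between any 2 being 0.996. The members and lists were chosen with earlier results of these data known. Named were the 10 members, and per list the 2 largest differences in each direction among genes called after PHZ in Mx1-Cre. Genes called between genotypes and the 3 genes most correlated with Eif2ak1 and Atf4 were named too. Eif2ak2, Alas2 and Urod were added after the values were seen. Alternatives were TMM factors, quantile normalization, the factor divided out, a granulocyte marker covariate, pseudocounts of 0.1 and 5, no filter or one at 5, the compared groups alone, a replicate block, and libraries left out. Splicing was not analysed here. Python 3.11.15 and matplotlib 3.10.9 drew the figures.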

Additional observations from a re-analysis of the deposited data

Results flagged for a closer look

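Of 40 groups of 5 libraries (10 genes in 4 groups), 1 held a library far from the others by Dixon's criterion, where chance gives about 1 in 20. Asns in Mx1-Cre PHZ had its lowest library, replicate 4, at 245.2, with the other 4 between 278 and 290.2. The gap made up 0.723 of the group's range, above the critical value of 0.71.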

How the results depend on the processing

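Nupr1 and Trib3 kept their PHZ calls in each alternative that tested them, and the filter at 5 removed both. In the main fit both passed the filter only through the PHZ libraries, where they are high. The number of the 10 genes called ran from 0 to 4 for PHZ in Mx1-Cre and from 1 to 4 in P95H, and was 0 in the other contrasts under every alternative. For PHZ in Mx1-Cre 4 genes were called under quantile normalization (Nupr1, Trib3, Ddit3 and Asns) and 0 with the filter at 5, which left 7 of the 10; in P95H that filter left 1 call. Differences near 0 changed sign in places; none of them was called, and the cause was not tested. Under quantile normalization these were, after PHZ in Mx1-Cre, Eif2ak3 (0.00563) and Eif2ak4 (0.00635), and the interaction of Asns (0.0469). With the factor divided out they were Eif2ak1 (0.029), Eif2ak3 (0.00341) and Eif2ak4 (0.0391) in Mx1-Cre, Eif2ak3 (0.0304) and Atf4 (0.0497) in P95H, and the interactions of Eif2ak3 (0.027) and Asns (0.00911). With the granulocyte covariate they were Eif2ak1 in Mx1-Cre (0.00248) and Ddit3 in P95H against Mx1-Cre under PBS (-0.0342), and without P95H PBS replicates 4 and 5, Eif2ak1 in P95H (-0.00946).

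Leaving out 1 library at a time gave PHZ differences from -0.0313 to 0.00354 for Eif2ak1 and -0.0302 to 0.0316 for Eif2ak4 in Mx1-Cre. In P95H the ranges were -0.0558 to 0.0721 for Eif2ak1, -0.0403 to 0.028 for Eif2ak4, -0.116 to 0.021 for Atf4 and -0.00422 to 0.0889 for Atf5. For P95H against Mx1-Cre they were -0.0731 to 0.0599 for Ddit3 under PBS, and under PHZ -0.0369 to 0.0353 for Asns, -0.109 to 0.02 for Atf5 and -0.179 to 0.000526 for Ppp1r15a. For the interaction they were -0.0386 to 0.0893 for Eif2ak1, -0.0359 to 0.0366 for Eif2ak4 and -0.0201 to 0.159 for Ppp1r15a.

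Of the list genes named, Nck1 and Sesn2 after PHZ in Mx1-Cre also lost their calls with the factor divided out, the granulocyte covariate and no filter, and Nck1 with the compared groups alone; in P95H Nck1 also lost its call with the factor divided out. Under PHZ between genotypes, quantile normalization ended the calls of Pycr1, Herpud1, Becn1 and Nfe2l2, the factor divided out those of Herpud1, Becn1 and Nfe2l2, the compared groups alone those of Pycr1 and Becn1, and TMM factors that of Becn1.

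Over all genes, the 3294 calls for PHZ in P95H became 1008 with the granulocyte covariate and 2100 without P95H PBS replicates 4 and 5. The 161 calls of P95H against Mx1-Cre under PBS became 98 without those 2 libraries, 78 with the 2 groups fitted alone, and 90 to 180 without 1 library, the lowest counts being without P95H PBS replicate 5 (90) and Mx1-Cre PBS replicates 1 and 3 (92 each). The 596 calls under PHZ became 292 under quantile normalization, 278 with the factor divided out (133 higher and 145 lower, against 120 and 476), 345 with the 2 groups alone, and 319 to 696 without 1 library, the lowest without replicate 3 of Mx1-Cre PHZ (319) or of P95H PHZ (331). With no filter the interaction called 1 gene.

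Whether same-numbered libraries belong together was not given in the sources used here. With 5 libraries per group, the correlations that follow cannot settle it. Deviations from group means of same-numbered libraries correlated between -0.306 and 0.27, and 6 of 20 libraries correlated best with their own number. With a replicate block, 3 of the 10 genes were called for PHZ in each genotype, Ddit3 in Mx1-Cre being the addition (adjusted p = 0.0413), and 0 in the other contrasts. Over all genes the block gave 3579, 3356, 189, 617 and 0 calls in the 5 contrasts. Pycr1 was not called with it (adjusted p = 0.0519).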
